A study of Mus musculus with 8 samples.

Results

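Neural stem cells (NSCs) and extended pluripotent stem cells (EPSCs) were the partners that the study fused, and the comparison described here is that of their transcriptomes before fusion. The members are all genes with a mean FPKM (fragments per kilobase of transcript and per 1000000 mapped fragments) of at least 1 in the EPSC libraries or in the NSC libraries. This rule gave 12735 of the 24354 genes listed (52.3%). Of these, 9750 reached the mean in both cell types, 1422 in EPSCs only, and 1563 in NSCs only. Polyadenylated RNA was sequenced in 8 libraries, 2 for each partner, 2 for ESCs, and 2 for hybrid cells made by fusion. EPSCs were the wild-type line 1, labelled p15, derived from C57BL/6 8-cell embryos and grown on inactivated mouse embryonic fibroblast feeders in the LCDM medium, which holds human LIF, the GSK3 inhibitor CHIR99021, (S)-(+)-dimethindene maleate, and minocycline hydrochloride. NSCs carried the OG2 transgene, a GFP reporter under Oct4 control, and the ROSA26 lacZ transgene, each on one allele, and grew on gelatin without feeders in an N2 medium with EGF and bFGF. ESCs were the wild-type E14 line on feeders in serum with LIF and serve here as the second pluripotent line. Hybrid cells were the EPSC-NSC line 2-2, labelled p10, kept like EPSCs, and entered the fit, its filter, and the check of replicate numbers. Each group was 1 line sequenced as 2 libraries, so p-values measure the spread between these libraries, which may be technical. Line, medium, feeders, and transgenes differed together between the partners and cannot be told apart. The strain background of the NSCs is not named in the sources used here, so a difference in strain cannot be told apart from these either.

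Pluripotent stem cells are held in an undifferentiated state by a circuit of transcription factors around OCT4 (gene Pou5f1), SOX2, and NANOG, and they grow as epithelial colonies joined by E-cadherin. Neural stem cells are the progenitors of neurons and glia, grow in response to EGF and FGF, and share many markers with radial glia, the progenitor cells of the embryonic brain. SOX2 serves in both cell types, where it acts with different partners of the POU family. EPSCs are a pluripotent state described as able to enter both embryonic and extraembryonic lineages.

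In units of 1000000 fragments, the depth was an estimated 22.1 and 23 for EPSCs and 28.5 and 28.8 for NSCs, derived from the steps on which low FPKM values lie (78.1% to 85.3% of these values were within 0.1 of a whole step). A transcript of 2 kb with 3 fragments would then be at 0.0521 to 0.0679 FPKM, which is taken as a floor and covers counting error alone. The FPKM of EPSCs summed to 653796 and 619155 and those of NSCs to 415240 and 415412, so the partners were not on a common sum. With every library scaled to one sum, the median difference of all members moved by −0.58 on the log2 scale, and 592 calls between the partners changed direction. Genes of the cytosolic ribosomal proteins took 25.2% and 24.6% of the EPSC sums and 13.2% and 12.8% of the NSC sums. The 100 most abundant genes took 36.3% of the mean EPSC profile and 23.1% of the NSC profile. In bulk libraries such as these, fewer cells that express a gene and less RNA per cell cannot be told apart.

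Most expressed genes differed between the partners. Throughout, a difference is the EPSC mean minus the NSC mean of log2(FPKM + 1), which understates the fold change of low genes, and p-values are those of limma with Benjamini-Hochberg adjustment. At an adjusted p under 0.05, 11089 members were called, 87.1% of all members tested, with 5692 higher in EPSCs (44.7%) and 5397 higher in NSCs (42.4%). Since nearly every gene passes, lists of genes are described below by the calls whose difference was also over 1. These numbered 6204 (48.7%), of which 3045 (23.9%) were higher in EPSCs and 3159 (24.8%) higher in NSCs. By a mean over 3 FPKM and a ratio over 3, the rule in the methods of the study, 29.9% of the members differed, 12.8% higher in EPSCs and 17.1% higher in NSCs. With 2 in place of 3 for both thresholds, values that stand elsewhere in its text, 6256 members differed. The median difference over all members was 0.045, with quartiles of −0.99 and 0.96, and the libraries of the partners did not overlap for 93.4% of them (47.9% higher in EPSCs, 45.5% higher in NSCs). The split of the calls depends on the scaling. With each library scaled to one sum, 33.7% of the calls were higher in EPSCs, against 51.3% with FPKM as deposited, and the calls over 1 numbered 2008 higher in EPSCs and 4870 higher in NSCs. Of the 6204 calls over 1, at least 6172 kept their direction as calls under each scaling and omission of a library that was tried, and so did all 5548 that a minimum of 3 FPKM left to be tested. A gene near 0 in one partner is a member only through its level in the other, so for lists of such genes the count of calls follows from the rule of membership and is a description.

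A gene set on in one partner and off in the other was smaller. The thresholds were chosen after the values were seen. At least 10 FPKM in both EPSC libraries and under 0.1 in both NSC libraries was met by 181 members. The opposite pattern held for 92. In both ESC libraries, 125 of the 181 were at 10 FPKM or more and 9 were under 1, whereas 89 of the 92 were under 1. Set against ESCs in the same fit, 2482 (81.5%) of the 3045 genes higher in EPSCs than in NSCs lay within 1 of the ESC level, 433 were called more than 1 above it, and 125 more than 1 below it. For the 3159 genes higher in NSCs, 2905 (92.0%) of the EPSC levels lay within 1 of the ESC level. Between EPSCs and ESCs themselves, limma called 60.7% of the members, 34.5% higher in EPSCs and 26.2% higher in ESCs. By over 1 it called 1194 (9.38%), with 5.28% higher in EPSCs and 4.09% higher in ESCs, and with a pseudocount of 0.1 this count was 2079. Both comparisons share the EPSC libraries. Nearest the threshold of membership, the epithelial gene Misp, inside it, had 1.26 and 0.743 FPKM in EPSCs and was listed at 0 in NSCs, and Atl1, outside it, had 0.933 and 0.831 in EPSCs and 0.937 and 1.06 in NSCs.

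**Figure D1:**
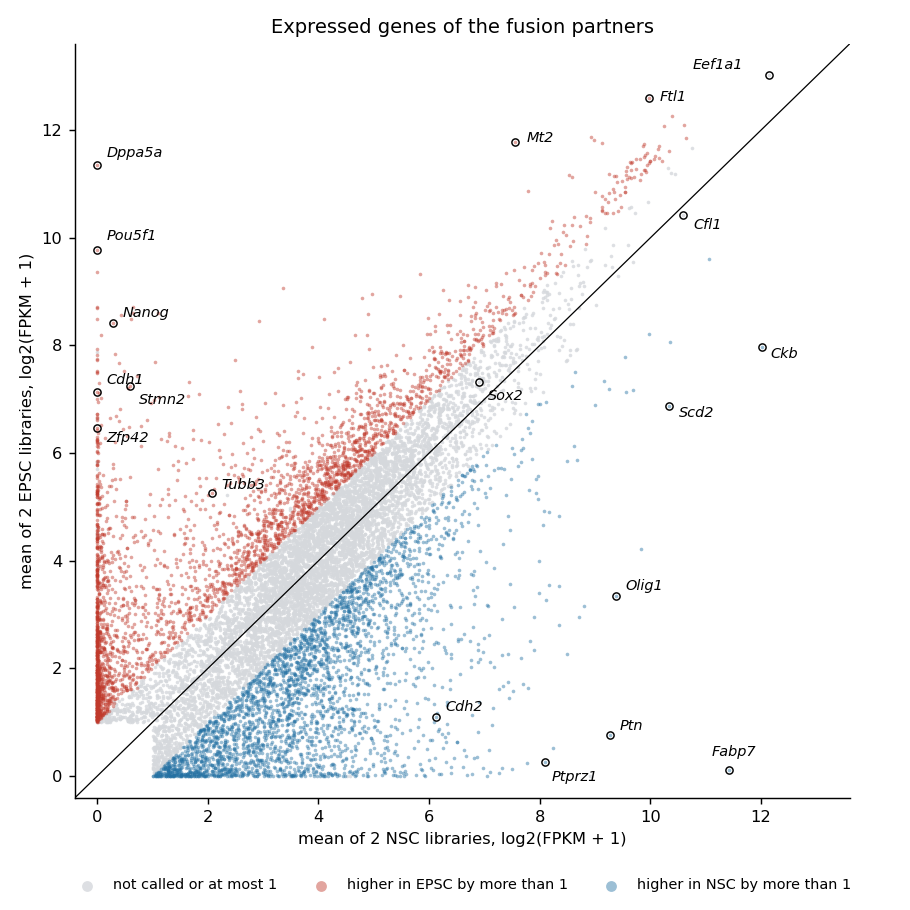
Mean log2(FPKM + 1) of the 2 EPSC libraries against that of the 2 NSC libraries for the 12735 members, 1 point per gene. Red and blue points are limma calls with a difference over 1, higher in EPSCs (3045) or in NSCs (3159), grey points are all others, and the line marks equal levels. Dppa5a and Pou5f1 lie on the left edge at 0 in NSCs, Fabp7 lies near 0 in EPSCs, and Sox2 lies close to the line.

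The 10 genes with the largest difference in favour of EPSCs were led by genes of pluripotent cells. Dppa5a, which encodes an RNA-binding protein of pluripotent cells, was at 2669 and 2580.0 FPKM in the EPSC libraries and was listed at 0 in both NSC libraries (limma adjusted p = 1e-10). Pou5f1 was at 949 and 790.2 FPKM (adjusted p = 2.4e-09), the Nodal co-receptor gene Tdgf1 at 453 and 388, and the threonine dehydrogenase gene Tdh at 455 and 377, and all 3 were listed at 0 in NSCs. Against NSC levels under 1 FPKM, Nanog was at 352 and 334 FPKM, the mitochondrial protein gene Chchd10 at 366 and 385, the myosin light chain gene Mylpf at 415 and 424, and the small heat shock protein gene Hspb1 at 368 and 408. Of these 8 genes, only Tdh and Mylpf passed the test as higher in EPSCs than in ESCs, by 0.81 and 0.998. The other 2 of the 10 are annotated as transcribed pseudogenes. Rps4l, at 654 and 661 FPKM against 0, is a near copy of Rps4x, and its value is uncertain because reads could be split between them. 2210409E12Rik was at 309 and 411 FPKM in EPSCs, listed at 0 in NSCs, and at 20.7 and 14.7 FPKM in ESCs, a difference between EPSCs and ESCs of 4.27 (adjusted p = 3.7e-06).

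The 10 genes with the largest difference in favour of NSCs were led by Fabp7. This gene, the brain fatty acid binding protein gene of radial glia, was at 2798 and 2709 FPKM in NSCs and 0.0828 and 0.0788 FPKM in EPSCs, which is near the floor (difference −11.32, SE 0.089, adjusted p = 3.8e-10). The growth factor gene Ptn was at 643 and 595 FPKM in NSCs and 0.872 and 0.503 in EPSCs, and the gene of its receptor phosphatase, Ptprz1, at 272 and 272 and 0.223 and 0.16. Ligand and receptor thus stood together among the largest differences. The membrane proteolipid gene Gpm6b was at 296 and 308 FPKM, the matrix proteoglycan genes Ncan and Bcan at 217 and 218 and at 180.2 and 181, the potassium channel gene Kcnj10 at 153 and 153, the acyl-CoA synthetase gene Acsbg1 at 159 and 158, the astrocyte membrane protein gene Mlc1 at 131 and 132, and the GABA transporter gene Slc6a11 at 136 and 136. In EPSCs, Mlc1 was listed at 0 and the other 6 genes lay at 0.0433 to 0.505 FPKM.

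The most abundant genes of EPSCs were largely those of translation. Eef1a1, which encodes the elongation factor that carries tRNA to the ribosome, led in both partners, at 8788 and 7886 FPKM in EPSCs and 4548 and 4456 in NSCs. In EPSCs it was followed by the ferritin light chain gene Ftl1, at 6236 and 6183 FPKM against 989 and 1024 in NSCs and 1250.2 and 1247 in ESCs. Ftl1 has near-identical copies in the genome, so its level is uncertain. Of the 10 most abundant EPSC genes, 6 encode ribosomal proteins (Rps12, Rplp1, Rps26, Rpl41, Rps2, and Rps18), and the others were the nucleolar chaperone gene Npm1, at 4209 and 3307 FPKM against 477 and 494, and the metallothionein gene Mt2, at 3469 and 3558 against 206 and 169. Mt2 was also higher in EPSCs than in ESCs, by 1.46 (adjusted p = 8.8e-05). In NSCs the second most abundant gene was Ckb, the brain-type creatine kinase, at 4237 and 4022 FPKM against 216 and 282 in EPSCs (difference −4.06, SE 0.18, adjusted p = 3.2e-07). Of the 10 most abundant NSC genes, 4 were of translation (Eef1a1, Rpl41, Rplp1, and Rps12). After Ckb came Fabp7 and the actin-binding thymosin gene Tmsb4x, at 2108 and 2168 FPKM against 778 and 781. The actin-severing protein gene Cfl1 was at 1537 and 1541 FPKM in NSCs and 1479 and 1264 in EPSCs and was not called (difference −0.17, adjusted p = 0.11).

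Of 19 pluripotency transcription factors, 17 were called higher in EPSCs by over 1, beside 23.9% of all members. The median difference of the list was 5.70, against 0.045 for all members. For genes listed at 0 in a partner the difference depends on the pseudocount and is no measure of fold, and with 0.1 in place of 1 this median was 7.22. Nanog was at 352 and 334 FPKM in EPSCs and 0.296 and 0.155 in NSCs, a difference of 8.13 (SE 0.066, adjusted p = 4.1e-10). Esrrb, a nuclear receptor of the naive state, was at 217 and 190.2 FPKM against 0.254 and 0.364, and Tfcp2l1 at 90.7 and 91.7 against 0.0503 and 0.0571. Klf2, Klf4, and Klf5 all lay far above NSCs, with differences of 5.90, 5.44, and 5.70, and Klf4 was at 132 and 135 FPKM in EPSCs against 52.9 and 53.1 in ESCs (difference between them 1.31, adjusted p = 0.00016). Zfp42 (REX1), Tbx3, Nr0b1, Sall4, Zscan10, and Foxd3 were listed at 0 in both NSC libraries. Zfp42 stood at 87.4 and 88.4 FPKM in EPSCs and at 346 and 335 in ESCs, so EPSCs were lower than ESCs by −1.94 (adjusted p = 1.9e-06). Foxd3, a forkhead factor linked to the exit from the naive state, was also lower in EPSCs than in ESCs, at 5.25 and 4.67 FPKM against 14.9 and 16.96.

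Sox2 and Otx2 departed from the rest of the list. Sox2 was at 162 and 155 FPKM in EPSCs and 116 and 119.6 in NSCs, and the small difference of 0.42 (adjusted p = 0.00053) changed sign with each library scaled to one sum or with quantile normalization. Otx2, a factor of the epiblast and of the anterior brain, was at 3.58 and 1.52 FPKM in EPSCs and 2.46 and 3.07 in NSCs, overlapping levels that were not called (difference −0.14, adjusted p = 0.62). In ESCs it was at 14.2 and 12.3 FPKM. The 14 pluripotency-linked effectors had a median difference of 6.67 (9.75 with a pseudocount of 0.1). All were called higher in EPSCs by over 1, beside 23.9% of all members. Dppa2 and Dppa4, chromatin proteins that prime developmental genes, were at 54.95 and 59.4 and at 99.5 and 93.7 FPKM. Dppa3, a maternal factor that limits DNA methylation, was at 88.02 and 67.1 FPKM in EPSCs, was listed at 0 in NSCs, and was at 31.7 and 32.2 in ESCs. The growth factor genes Fgf4 and Gdf3 stood at 114 and 97.1 and at 69.98 and 66.3 FPKM, and NSCs had 0.0182 FPKM of Gdf3 at most. Detectable in NSCs were the genes of the secreted phosphoprotein Spp1, at 9.76 and 8.69 FPKM against 511 and 563, and of alkaline phosphatase, Alpl, at 9.1 and 9.59 against 71.9 and 95.7.

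The transcription factors of neural stem cells showed the opposite pattern. All 18 members of this list of 19 were called higher in NSCs by over 1, beside 24.8% of all members. Their median difference was −4.57. Olig1 and Olig2, factors of the oligodendrocyte lineage, were the most abundant, at 665 and 663 and at 320.2 and 334 FPKM. Sox8, at 117 and 115 FPKM, had the largest difference of the list (−6.52, SE 0.08, adjusted p = 1.5e-09). Pou3f3 was at 56 and 56.9 FPKM against 0.11 and 0.213 in EPSCs, and Sox9 at 30.2 and 28.8 against 0.343 and 0.352. Sox1 and Pax6, the usual markers of neural identity, were lower, at 13.04 and 12.7 and at 12.4 and 12.7 FPKM. The nuclear factor I genes Nfia, Nfib, and Nfix, which act in gliogenesis, were at 22.3 to 62.98 FPKM in NSCs. Some genes of the list were not silent in EPSCs. Olig1 was at 8.6 and 9.82 FPKM in EPSCs against 0.341 and 0.203 in ESCs, a difference of 3.005 between them (SE 0.092, adjusted p = 1.3e-06). Olig2 was at 5.89 and 6.09 against 0.0274 and 0.0746 (2.73, adjusted p = 1.2e-06), and Nfib at 4.21 and 4.25 against 1.92 and 1.84. Fabp7 and Sox8 lay at no more than 0.326 FPKM in the same EPSC libraries.

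Radial glial and astroglial markers were mixed. Of 19 genes, 13 were called higher in NSCs by over 1, beside 24.8% of all members. Only Gja1, which encodes a gap junction protein, was called higher in EPSCs by over 1, beside 23.9% of all members. Besides Fabp7, the glutamate transporter gene Slc1a3 was at 404 and 431 FPKM in NSCs against 7.21 and 6.26, Aldoc at 339.7 and 313 against 10.6 and 10.4, and the endothelin receptor gene Ednrb at 122 and 127 against 0.107 and 0.126. Nes, the intermediate filament gene that names neural stem cells, was at 114 and 119.6 FPKM in NSCs and 4.63 and 4.3 in EPSCs. Gfap, the filament of astrocytes, was at 29.2 and 24.8 FPKM in NSCs, whereas Aqp4 and S100b, which mark mature astrocytes, stood at 2.03 and 1.78 and at 3.4 and 3.24. Vim was high in both partners, at 1045 and 976 FPKM in NSCs and 292 and 299 in EPSCs. Genes often used as neural markers were thus not all low in EPSCs. Gja1 was at 129 and 82.5 FPKM in EPSCs and 37.4 and 39.02 in NSCs, Apoe at 711 and 717 and 421 and 350.4, and Prom1, which encodes CD133, at 2.28 and 1.67 and 0.689 and 0.711. All 6 members among the neural proteoglycans and tenascins were called higher in NSCs by over 1, beside 24.8% of all members. Their median difference was −6.77. Among them, Cspg5 was at 98.8 and 97.8 FPKM in NSCs, 0.377 and 0.41 in EPSCs, and 3.63 and 3.76 in ESCs.

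Positional genes known from several levels of the neural axis were found in NSCs. Of 23 regional factors of the brain, 8 were members. The highest in NSCs were En2, at 18.4 and 17.4 FPKM, Irx1, at 18.9 and 16.4, Irx2, at 13.2 and 12.98, and Irx3, at 10.6 and 9.68. Lhx2 was at 8.45 and 8.78 FPKM, Nkx2-2 at 7.98 and 8.11, Otx1 at 6.59 and 7.29, and Pax3 at 5.92 and 5.34. The forebrain factor gene Emx1 was listed at 0 in both NSC libraries. Of 39 Hox genes, 8 were members, and the 7 higher in NSCs all lie in the Hoxa cluster. Hoxa5 was at 17.2 and 18.5 FPKM, Hoxa3 at 12.1 and 14.05, and Hoxa4 at 6.11 and 6.88, whereas Hoxa9, Hoxa10, Hoxa11, and Hoxa13 lay at or under 0.0355 FPKM. All Hoxb, Hoxc, and Hoxd genes were listed at 0 in both NSC libraries. In EPSCs, Hoxb9 was at 1.34 and 1.92 FPKM.

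Of 15 neuron markers 6 were members, with 2 called higher by over 1 in each partner, near the 23.9% and 24.8% of all members. Tubb3, a neuronal beta tubulin, was higher in EPSCs, at 47.2 and 27.6 FPKM against 3.68 and 2.75 (difference 3.15, SE 0.26, adjusted p = 1.1e-05). Stmn2, a neuronal regulator of microtubules, was at 167 and 136 FPKM in EPSCs and 0.493 and 0.531 in NSCs. Both were also present in ESCs, at 78.9 and 78.7 and 93.2 and 90.3 FPKM. In the other direction, Map2 was at 173 and 191 FPKM in NSCs and 2.3 and 1.71 in EPSCs. Dcx, Rbfox3, Syt1, and both vesicular glutamate transporter genes averaged under 1 FPKM in both partners. Of 10 oligodendrocyte lineage markers 6 were members. Of these, 5 were called higher in NSCs (42.4% of all members), 3 by over 1 (24.8% of all members). NSCs had Cnp at 45.4 and 45.4 FPKM, Cspg4 at 6.91 and 6.52, and Pdgfra at 3.13 and 2.91, but Sox10 at 0.125 and 0.0828 and Mog at 0. The exception was the oligodendrocyte factor gene Myrf, higher in EPSCs, at 3.26 and 2.09 FPKM against 0.461 and 0.397.

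**Figure D2:**
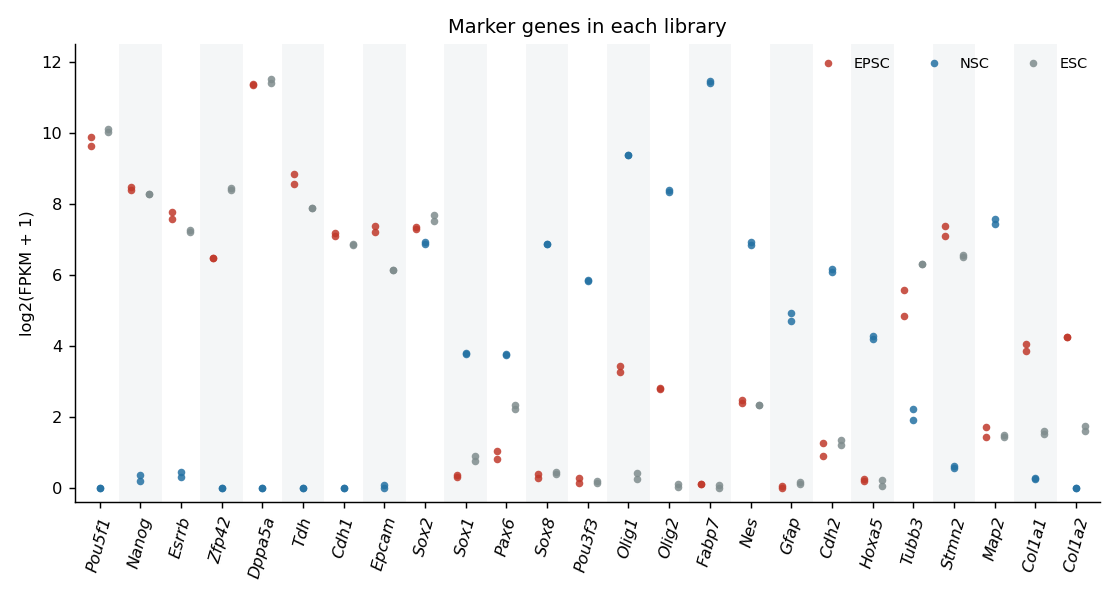
Level of pluripotency, neural, and adhesion genes in each EPSC, NSC, and ESC library, on a log2(FPKM + 1) axis, 1 point per library. The 2 libraries of a group lie close together, Pou5f1, Nanog, and Cdh1 are at or near 0 in NSCs, Fabp7 is near 0 in EPSCs and ESCs, and Olig1 and Olig2 lie above 0 in EPSCs at levels that ESCs lack.

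The promoters of 4 members from opposite ends of the comparison are shown as sequence, for 2 pluripotency factor genes, a germline gene described below, and the NSC gene with the largest difference. Each run holds 250 bases before and 50 bases after the annotated start, 5′ to 3′ on the strand of the gene, from RefSeq on GRCm38.p6. Capitals mark CpG dinucleotides, the sites of DNA methylation, and the octamer ATGCAAAT of POU factors or its reverse complement ATTTGCAT. The octamer occurred on either strand in 474 of the 27025 windows of the table (1.75%), and of these 4 windows only that of Zfp42 holds it, in the form ATTTGCAT, starting 186 bases before the start. The 4 windows hold 11, 11, 16, and 6 CpG dinucleotides, in the order shown.
Pou5f1, chr17:35505782-35506081, plus strand: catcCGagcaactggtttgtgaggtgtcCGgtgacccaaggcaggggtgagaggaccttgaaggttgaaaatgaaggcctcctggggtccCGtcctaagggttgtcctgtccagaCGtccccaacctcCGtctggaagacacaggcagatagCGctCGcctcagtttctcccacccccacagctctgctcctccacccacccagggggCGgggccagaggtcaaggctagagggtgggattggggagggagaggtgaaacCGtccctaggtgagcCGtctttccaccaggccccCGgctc
Zfp42, chr8:43306960-43307259, minus strand: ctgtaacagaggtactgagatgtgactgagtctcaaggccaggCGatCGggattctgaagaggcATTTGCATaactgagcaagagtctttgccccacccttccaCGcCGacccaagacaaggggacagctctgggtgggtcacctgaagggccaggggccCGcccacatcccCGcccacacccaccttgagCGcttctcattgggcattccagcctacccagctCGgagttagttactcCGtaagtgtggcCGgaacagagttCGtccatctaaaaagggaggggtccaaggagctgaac
Tex19.1, chr11:121145893-121146192, plus strand: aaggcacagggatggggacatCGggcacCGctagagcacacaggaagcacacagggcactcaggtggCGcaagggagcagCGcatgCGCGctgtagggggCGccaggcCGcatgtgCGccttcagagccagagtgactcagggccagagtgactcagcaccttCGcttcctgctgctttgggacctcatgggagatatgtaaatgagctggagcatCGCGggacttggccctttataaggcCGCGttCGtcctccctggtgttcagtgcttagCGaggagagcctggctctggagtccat
Fabp7, chr10:57784673-57784972, plus strand: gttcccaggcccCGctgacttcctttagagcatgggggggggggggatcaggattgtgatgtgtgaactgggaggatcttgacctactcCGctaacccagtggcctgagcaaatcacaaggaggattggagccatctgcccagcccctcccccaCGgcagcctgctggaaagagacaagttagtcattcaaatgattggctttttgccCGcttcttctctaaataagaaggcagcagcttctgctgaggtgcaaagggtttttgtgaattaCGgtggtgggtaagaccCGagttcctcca
A match of these letters describes the window and is not a binding site. Windows were found for 79.6% of the members, too few for a comparison of CpG content or motifs between genes higher in EPSCs and in NSCs, which is therefore void.

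Germline genes were expressed in EPSCs. Of 13 genes known to be silenced by promoter methylation in somatic cells, 9 averaged at least 1 FPKM in EPSCs, and in NSCs all 13 lay at or under 0.108 FPKM. Tex19.1, which acts in the control of retrotransposons, was at 109 and 147 FPKM in EPSCs, was listed at 0 in NSCs, and was at 14.2 and 13.4 in ESCs, so that EPSCs exceeded ESCs by 3.11 (SE 0.12, adjusted p = 3.6e-06). The germ cell RNA-binding protein genes Dazl and Ddx4 were at 8.15 and 10.8 and at 10.1 and 10.9 FPKM in EPSCs, and at 2.2 and 1.89 and at 5.19 and 5.17 in ESCs. Sycp3, of the meiotic chromosome axis, was lower in EPSCs than in ESCs, at 11.3 and 16.5 FPKM against 54.4 and 56.5. Genes of the 2-cell-like state, a rare state of pluripotent cultures, were listed at 0 in both NSC libraries. Zscan4c was at 2.34 and 6.55 FPKM in EPSCs, Zscan4d at 3.19 and 7.18, Zscan4f at 1.95 and 6.16, and Tcstv1 at 0.889 and 2.42, so the second EPSC library was higher than the first for each of them. Members of the Zscan4 and Tcstv families are near-identical, and reads could be shared between them.

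Trophectoderm and primitive endoderm markers were partly expressed in EPSCs. Of 8 trophectoderm markers 5 were members, all called higher in EPSCs (44.7% of all members), 3 of them by over 1 (23.9% of all members). Of 9 primitive endoderm markers 5 were members, of which 4 were called higher in EPSCs, 3 by over 1, and Dab2 higher in NSCs. The factor genes Cdx2, Elf5, Hand1, Gata4, Gata6, Sox17, and Foxa2 had a mean under 1 FPKM in EPSCs and in NSCs. Tfap2c, which also acts in pluripotent cells and germ cells, was at 45.3 and 30.1 FPKM in EPSCs and listed at 0 in NSCs, Tead4 at 13.9 and 12.9 against 0.0609 and 0.0505, and Eomes at 3.54 and 4.32 against 0.0405 and 0.01. EPSCs and ESCs differed by no more than 0.99 in these 3 genes. The endoderm factor gene Sox7 was at 3.3 and 2.23 FPKM against 0.0229 and 0.0226, and the basement membrane genes Lama1 and Col4a2 were at 5.91 and 5.77 against 0.55 and 0.541 and at 5.5 and 5.7 against 1.94 and 2.03. The primitive endoderm list was at a similar level in ESCs, with sums of 26.8 and 26.6 FPKM in EPSCs and 27.7 and 27.6 in ESCs. No member of it was called between EPSCs and ESCs by over 1.

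Fibroblast genes were higher in the EPSC libraries, which came from cultures on fibroblast feeders. Of 14 fibroblast markers 13 were members. Of these, 9 were called higher in EPSCs by over 1 and Prrx1 higher in NSCs by over 1, beside 23.9% and 24.8% of all members. The summed level of the list was 267 and 271 FPKM in EPSCs, 83.7 and 78.7 in NSCs, and 169 and 173 in ESCs. Col1a1 was at 13.7 and 15.7 FPKM in EPSCs, 0.226 and 0.192 in NSCs, and 1.86 and 2.06 in ESCs. Col1a2 and Lum were listed at 0 in NSCs and were at 17.97 and 18.03 and at 5.03 and 4.02 FPKM in EPSCs. The largest part of the EPSC sum was fibronectin, Fn1, at 157 and 162 FPKM in EPSCs and 140.4 and 142 in ESCs. A list of 7 genes used as PCR markers of EPSCs against ESCs held 6 members. The matrix genes Bgn and Postn, at 43.9 and 43.3 and at 11.5 and 10.5 FPKM, and the splicing factor gene Esrp1, at 22.1 and 15.95, were higher in EPSCs than in NSCs. The other 3 were higher in NSCs, with tenascin C (Tnc) at 261 and 268 FPKM against 23.3 and 25.1, the cytokine gene Csf1 at 10.8 and 11.5 against 3.21 and 2.77, and Vcam1 at 10.01 and 9.61 against 1.14 and 0.965. For Tnc, Csf1, and Vcam1 this direction differs from the PCR of the study, which reports lower levels in NSCs than in EPSCs. The measures are unlike, since that PCR used Gapdh as its reference gene. Here Gapdh was itself called higher in EPSCs by over 1. Fibroblasts also make Bgn, Postn, and Tnc, and the part of the feeders in these levels and in those of the fibroblast list was not tested.

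Adhesion genes also separated the partners. All 13 epithelial adhesion genes were called higher in EPSCs by over 1, beside 23.9% of all members. Their median difference was 3.84 (7.06 with a pseudocount of 0.1). E-cadherin, Cdh1, was at 145 and 136 FPKM in EPSCs and listed at 0 in NSCs, Epcam at 166 and 147 against 0.0564 and 0, and the claudin gene Cldn4 at 108 and 94.5 against 0. Epcam and Cldn7 also exceeded the ESC level, by 1.16 and 1.87, whereas Cdh3 and Cldn3 differed from it by −1.08 and −1.001. In NSCs, 8 of 9 members among the mesenchymal and neural adhesion genes were higher by over 1, beside 24.8% of all members. N-cadherin, Cdh2, was at 67.5 and 70.7 FPKM in NSCs against 1.41 and 0.879 in EPSCs, Chl1 at 69.2 and 77.8 against 0.0238 and 0.0287, Ncam1 at 61.9 and 62.2 against 1.59 and 1.82, and Zeb1, a repressor of E-cadherin, at 104 and 110.4 against 3.03 and 3.86. Snai1, another repressor of E-cadherin, went the other way, at 4.8 and 3.59 FPKM in EPSCs and 0.126 and 0.0503 in NSCs.

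Chromatin regulators differed in both directions. Of 10 genes of DNA methylation, 5 were called higher in EPSCs by over 1 and Tet3 higher in NSCs by over 1, beside 23.9% and 24.8% of all members. The de novo methyltransferase gene Dnmt3b was at 87.7 and 63.5 FPKM in EPSCs against 1.36 and 1.11 in NSCs (difference 5.08, adjusted p = 6.6e-08), and its cofactor gene Dnmt3l at 111 and 58.8 against 0. Dnmt3a, at 13.3 and 11.2 FPKM in EPSCs and 16.01 and 16.6 in NSCs, was not called (adjusted p = 0.072). Of the dioxygenases that oxidize methylcytosine, Tet1 was higher in EPSCs, at 46.4 and 44.1 FPKM against 3.26 and 3.61, and Tet3 higher in NSCs, at 17.7 and 19.03 against 0.521 and 0.441. Zfp57, which protects the methylation of imprinted regions, was at 207 and 214 FPKM in EPSCs and 4.68 and 4.56 in NSCs. In the BAF chromatin remodelling complex, 8 of 19 members differed by over 1 (2 higher in EPSCs, 6 higher in NSCs), close to the 48.7% of all members. NSCs were higher in the ATPase gene Smarca2, at 22.3 and 21.02 FPKM against 0.907 and 1.44, in Smarcc2, at 52.1 and 51.4 against 6.89 and 7.46, in Smarcd3, at 20.6 and 19.2 against 2.18 and 2.89, and in Dpf3, at 12.7 and 12.9 against 0.208 and 0.0997. The other ATPase gene, Smarca4, was at 49.3 and 52.9 FPKM in EPSCs and 66.6 and 68.99 in NSCs, a difference of −0.40. The gene of the neuronal subunit Actl6b was at or near 0 in both partners.

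Among the fetal RNA-binding proteins, Lin28a, which blocks the maturation of let-7 miRNAs, was at 161 and 114 FPKM in EPSCs and 0.0107 and 0.0317 in NSCs, and Lin28b at 7.15 and 5.74 against 0.0472 and 0.0133. Igf2bp1 was at 94.1 and 104 FPKM against 0, and Trim71 at 27.2 and 28.7 against 0.0422 and 0.0277. The chromatin protein gene Hmga2 went against the list of 8, at 11.7 and 14.5 FPKM in NSCs and 4.97 and 7.4 in EPSCs, whereas Hmga1 was at 380.5 and 387 in EPSCs and 27.8 and 29.7 in NSCs. Hmga1 also exceeded the ESC level, by 1.38 (adjusted p = 5.3e-06).

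Imprinted genes, expressed from one parental allele, differed in both directions. Of 22 members, 12 were called higher in EPSCs by over 1 and 6 higher in NSCs by over 1, beside 23.9% and 24.8% of all members. Meg3, Rian, Zdbf2, Phlda2, and Slc38a4 were listed at 0 in both NSC libraries, whereas in EPSCs Meg3 was at 46.4 and 31.6 FPKM, Rian at 48.8 and 27.7, Zdbf2 at 12.8 and 11.6, Phlda2 at 62.8 and 81.6, and Slc38a4 at 68.1 and 80.8. Meg3 and Rian are neighbouring noncoding RNAs of one imprinted domain on chromosome 12. Grb10 was at 35.7 and 35.4 FPKM in EPSCs and at no more than 0.0307 in NSCs. Mest, at 374 and 413 FPKM against 75.8 and 62.7, Nnat, at 110.2 and 102 against 5.24 and 4.17, and Gnas, at 605 and 607 against 146 and 145, were higher in NSCs. H19, a noncoding RNA next to Igf2, was at 18.4 and 17.1 FPKM in EPSCs, 3.62 and 3.31 in NSCs, and 1.6 and 1.17 in ESCs. Alleles were not measured, so these are levels from both alleles together.

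**Figure D3:**
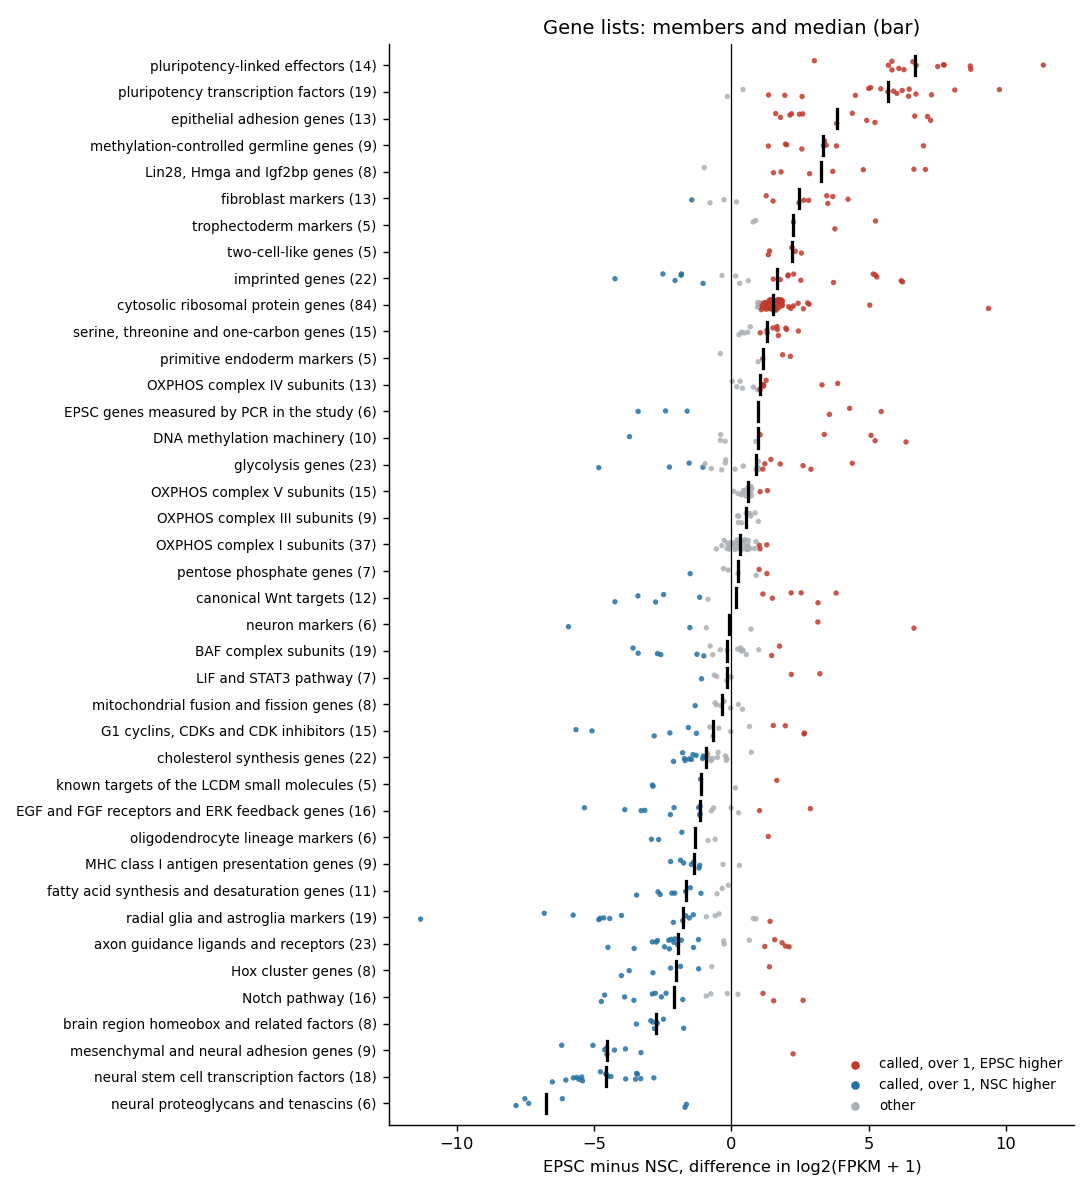
EPSC minus NSC difference of each member of the gene lists, on the log2(FPKM + 1) scale, 1 point per gene and a bar at the median of the list. All members of the epithelial adhesion and germline lists lie above 0, all members of the neural stem cell factor and proteoglycan lists lie below 0, and the medians of OXPHOS complexes I, III, and V lie between 0.32 and 0.59.

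Receptors for the factors of the media were compared next. EGF and bFGF were in the NSC medium, and Egfr was at 77.5 and 80.1 FPKM in NSCs and 0.964 and 0.949 in EPSCs (difference −5.35, SE 0.12, adjusted p = 1.3e-08). Fgfr3 was at 37.1 and 34.9 FPKM against 1.19 and 1.88 and Fgfr1 at 44.9 and 43.5 against 18.5 and 19.08. Genes induced by the ERK pathway, which these receptors activate, were higher in NSCs for Spry1, at 61.1 and 68.7 FPKM against 5.25 and 6.29, Dusp6, at 109 and 127 against 25.8 and 23.02, and Egr1, at 270.3 and 268 against 31.4 and 27.5, but Etv5 was not called, at 116 and 127 and 135 and 108 (adjusted p = 0.95). Erbb3 went the other way, at 5.61 and 7.46 FPKM in EPSCs and 0.0184 and 0.0181 in NSCs. LIF was in the EPSC medium, and its receptor genes Lifr and Il6st were not called, with adjusted p of 0.13 and 0.96. Lifr was at 10.03 and 11.4 FPKM in EPSCs and 11.5 and 12.7 in NSCs. Stat3 was higher in NSCs, at 73.6 and 75.7 FPKM against 32.2 and 37.2, and Socs3, a target of STAT3 that feeds back on it, was higher in EPSCs, at 54.2 and 50.1 FPKM against 11.5 and 9.9. In ESCs, Socs3 was at 7.65 and 7.74 FPKM, so EPSCs exceeded ESCs as well (2.61, adjusted p = 1.4e-06).

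Known targets of the small molecules in the EPSC medium were also compared. The histamine receptor gene Hrh1, a target of dimethindene, was at 6.91 and 6.21 FPKM in NSCs and 0.0378 and 0.0242 in EPSCs, near or under the floor of 3 fragments. The muscarinic receptor gene Chrm3 was at 7.81 and 7.95 FPKM in NSCs and 0.198 and 0.264 in EPSCs, and the other 4 muscarinic receptor genes averaged under 1 in both. Parp1, an enzyme that minocycline inhibits, was at 230.3 and 229.6 FPKM in EPSCs and 71 and 73.9 in NSCs. Gsk3b, one of the kinase genes inhibited by CHIR99021, was at 28.2 and 32.5 FPKM in NSCs against 12.1 and 14.8. Inhibition of GSK3 activates canonical Wnt signalling, and 6 of 12 members among the Wnt target genes were called higher in EPSCs by over 1 and 5 higher in NSCs by over 1, beside 23.9% and 24.8% of all members. Sp5 and Cdx1, listed at 0 in NSCs, were at 3.66 and 3.38 and at 11.1 and 15.4 FPKM in EPSCs, and Tcf7 was at 17.3 and 17.7 against 2.11 and 2.25. In NSCs, Axin2 was at 23.1 and 23.9 FPKM against 10.02 and 9.95, Rnf43 at 18.1 and 19.4 against 0.0439 and 0.0423, and Lgr5 at 9.17 and 10.2 against 0.01 and 0.00963. Set against ESCs, Axin2 was higher in EPSCs by 1.12, Sp5 by 1.5, and Cdx1 by 1.92, and all 3 passed the test. Lef1 differed widely between the EPSC libraries, at 8.21 and 2.81 FPKM.

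Notch and guidance genes were mostly higher in NSCs. Of 16 Notch pathway members, 9 were higher in NSCs by over 1 and 3 higher in EPSCs by over 1, beside 24.8% and 23.9% of all members. The ligand gene Dll1 was at 28.2 and 26.2 FPKM against 0.77 and 1.05, the receptor gene Notch1 at 63.5 and 60.6 against 10.5 and 11.8, the glycosyltransferase gene Lfng at 119.8 and 119 against 3.94 and 3.14, and the target gene Hes5 at 29.5 and 19.5 against 0 and 0.0408. Rbpj, the DNA-binding factor of the pathway, was higher in EPSCs, at 91.7 and 96.2 FPKM against 13.9 and 15.2, and the ligand gene Jag2 at 2.66 and 2.22 against 0.155 and 0.207. Hes1, a target in both cell types, was at 21.9 and 22.4 FPKM in EPSCs and 23.9 and 25.4 in NSCs (difference −0.15). Among 23 members for axon guidance, 15 were higher in NSCs by over 1 and 5 higher in EPSCs by over 1, beside the same shares of all members. In NSCs, Sema6a was at 35.8 and 37.7 FPKM against 0.592 and 0.758 and Sema3a at 13.9 and 15.2 against 0.347 and 0.321. Ligands and receptors of one system were on opposite sides, since Slit2 and Slit3 were higher in EPSCs, at 2.81 and 3.45 and at 2.94 and 3.7 FPKM, and their receptor gene Robo2 was higher in NSCs, at 5.17 and 5.91 against 0.0172 and 0.00553.

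In energy metabolism, the partners differed in isoforms. For glycolysis, 7 of 23 genes were called higher in EPSCs by over 1 and 4 higher in NSCs by over 1, shares not far from the 23.9% and 24.8% of all members. The glucose transporter gene Slc2a3 was at 359.8 and 361 FPKM in EPSCs and 16.3 and 15.9 in NSCs (difference 4.40, SE 0.06, adjusted p = 1.9e-09), Hk2 at 57.7 and 63.8 against 9.27 and 8.92, and the phosphofructokinase gene Pfkp at 46.6 and 40.1 against 5.08 and 4.81. NSCs were higher in Hk1, at 41.5 and 36.5 FPKM against 15.5 and 22.1, in the phosphofructokinase regulator Pfkfb3, at 25.5 and 26.5 against 5.42 and 3.97, and in Aldoc. OXPHOS subunits differed by complex. Limma called 24 of 37 subunits of complex I, 1 of 4 of complex II, 9 of 9 of complex III, 12 of 13 of complex IV, and 14 of 15 of complex V higher in EPSCs, against 44.7% of all members. Those over 1 were 3, 0, 0, 7, and 2, against 23.9% of all members. Higher in NSCs were 4 subunits of complex I and 2 of complex II, none by over 1. The median differences were 0.32 for complex I, −0.15 for complex II, 0.54 for complex III, and 0.59 for complex V, and those of complexes I, III, and V fell below 0 with each library scaled to one sum. Complex IV kept a median above 0 under each scaling (1.05 with FPKM as deposited). Its subunit gene Cox6b2 was at 67.1 and 59.1 FPKM in EPSCs against 5.39 and 5.6, and Cox7a1 at 22.9 and 40.97 against 0.812 and 1.58.

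Biosynthesis divided by pathway. All 15 genes of serine, threonine, and one-carbon metabolism were called higher in EPSCs, 10 of them by over 1, beside 44.7% and 23.9% of all members. Among the 10, Mthfd2 was at 141 and 135 FPKM against 24.1 and 25.3, the glycine cleavage gene Amt at 74.1 and 68.1 against 17.8 and 16.01, and Ahcy at 128 and 109 against 29.7 and 28.6. The 5 others had differences of 0.28 to 0.69, and 4 of these changed sign with each library scaled to one sum. Lipid synthesis was higher in NSCs. Of 11 genes of fatty acid synthesis and desaturation, 8 were higher in NSCs by over 1, beside 24.8% of all members. In NSCs, Scd2 was at 1274 and 1295 FPKM against 121 and 112 (difference −3.45, adjusted p = 1.7e-08), Fads2 at 246 and 239 against 35.3 and 39.2, and Scd1 at 168 and 166 against 37.4 and 35.2. The 22 genes of cholesterol synthesis had a median difference of −0.94, and Ebp alone was called higher in EPSCs. Against ESCs, EPSCs were higher by over 1 in Dhcr7, at 25.8 and 28.1 FPKM against 11.4 and 10.3, and in Insig1, at 82.9 and 87.02 against 37 and 35.99. The median of the 84 ribosomal protein genes was 1.5 as deposited and 0.34 with quantile normalization.

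**Figure D4:**
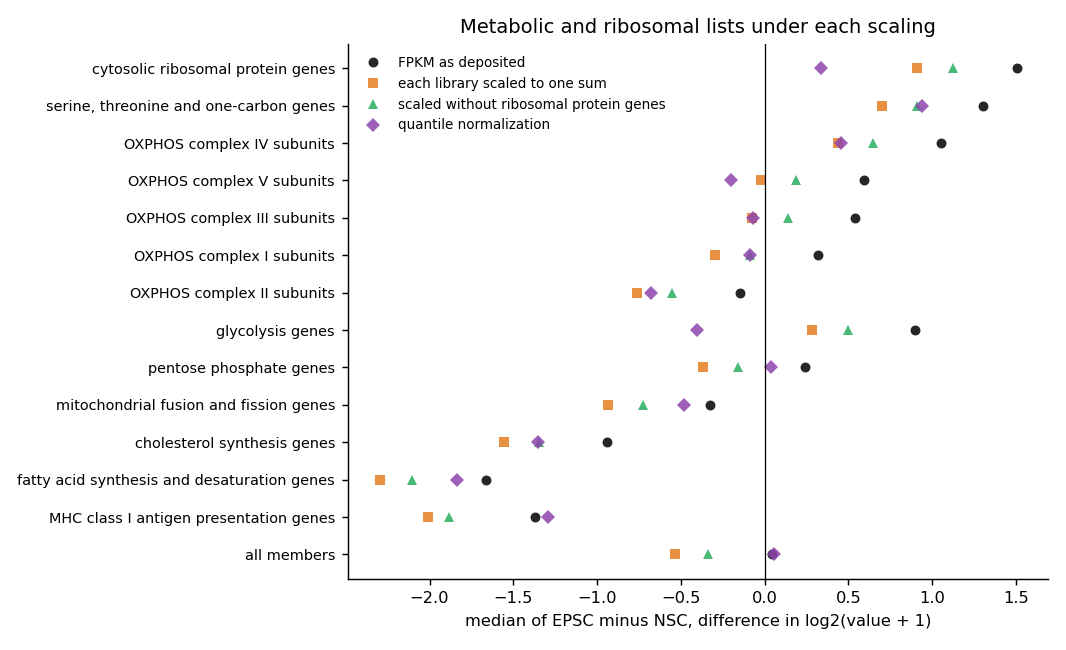
Median EPSC minus NSC difference of each metabolic list, in log2(value + 1), with FPKM as deposited and under 3 other scalings. The lists of complexes I, III, and V cross 0, whereas one-carbon genes stay above 0 and cholesterol, fatty acid, and MHC genes stay below 0 under each scaling.

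Cell cycle regulators showed a change of D-type cyclin. Ccnd2 was at 152 and 165 FPKM in NSCs and 4.05 and 3.42 in EPSCs (difference −5.08, SE 0.18, adjusted p = 9.6e-08), Ccnd1 at 399 and 412 against 67.5 and 47.9, and Ccnd3 at 137 and 171 in EPSCs against 37.3 and 39.7. Ccne1, the E-type cyclin that drives entry into S phase, was at 114 and 113 FPKM in EPSCs and 17.5 and 16.8 in NSCs. Inhibitors of CDK4 and CDK6 were higher in NSCs, with Cdkn2c at 76.9 and 78.4 FPKM against 0.518 and 0.596, Cdkn2d at 33.9 and 38.2 against 11.7 and 11.3, Cdkn2a at 33.05 and 33 against 13.5 and 12.7, and Cdkn2b at 5.19 and 4.66 against 2.33 and 2.53 (difference −0.79). Cdk6 itself was higher in EPSCs, at 8.9 and 8.98 FPKM against 0.664 and 0.52, and stood at 1.17 and 1.54 in ESCs, whereas Cdk4 was not called (adjusted p = 0.8). Genes of MHC class I presentation were low in EPSCs. Of 9 members, 7 were higher in NSCs by over 1, beside 24.8% of all members. Among the 7 were B2m, at 109 and 114 FPKM against 34.7 and 30.8, H2-K1, at 28.3 and 26.6 against 11.7 and 8.49, and Tap1, at 5.58 and 5.79 against 0.806 and 0.904.

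Some related genes exchanged the lead between the partners. For 20 pairs, the level of the first gene minus that of the second, both as log2(FPKM + 1), was computed in each library and is called the log2 ratio here. In 9 pairs the first gene led in EPSCs and not in NSCs, and for 8 of these a lead can be read in both partners. Pou5f1 to Pou3f2 was 9.78 and 9.40 for EPSCs against −3.96 and −4.08 for NSCs, and Cdh1 to Cdh2 was 5.92 and 6.19 and −6.10 and −6.16. The ratio of Ccnd3 to Ccnd2 was 4.77 and 5.28 in EPSCs and −2.003 and −2.03 in NSCs, and that of Tet1 to Tet3 4.96 and 4.97 and −2.14 and −2.12. Mycn led over Myc in EPSCs, with ratios of 3.19 and 2.19, and Myc led in NSCs, with −4.02 and −4.21. Dnmt3b to Dnmt3a, Hk2 to Hk1, and Slc2a3 to Slc2a1 changed lead by 5.47, 3.64, and 2.62 between the partners. Lin28a to Lin28b was about even in NSCs, where both genes lay at or under the floor, so no lead is read from this pair. Pairs that kept their lead shifted as well, with Smarcc1 to Smarcc2 at 3.19 and 3.02 in EPSCs and 0.021 and 0.13 in NSCs. With a pseudocount of 0.1 in place of 1, the count of such pairs was again 9. With 2 libraries against 2, the exact permutation test cannot give a two-sided p below 0.333, so these ratios are descriptions.

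**Figure D5:**
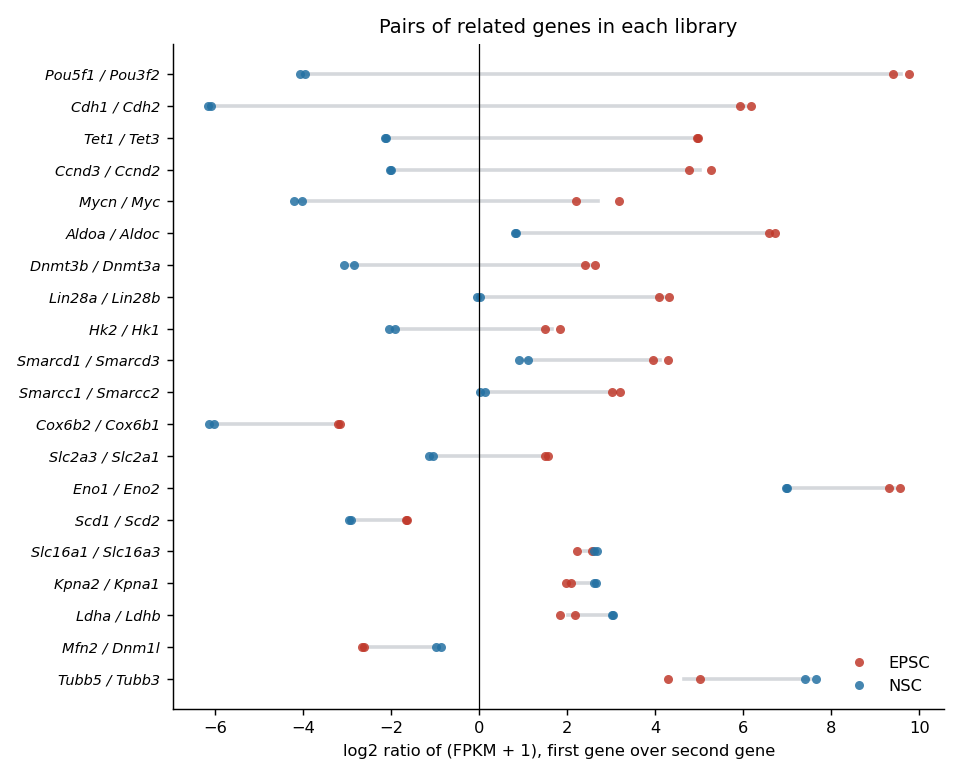
Log2 ratio (difference in log2(FPKM + 1)) of the first to the second gene of 20 related pairs in each EPSC and NSC library, 1 point per library, with the line at 0 marking equal levels. For Pou5f1 and Pou3f2, Cdh1 and Cdh2, Ccnd3 and Ccnd2, and Mycn and Myc, the EPSC points lie above 0 and the NSC points below 0.

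By chromosome, the differences were spread widely. The median difference of the members ranged from −0.20 on chromosome 18, with 345 members, to 0.24 on chromosome 13, with 465, and was −0.079 on chromosome X. The share of members called higher in EPSCs by over 1 lay between 20.3% on chromosome 9 and 28.4% on chromosome 17. Protein-coding genes made up 12303 of the members and long noncoding RNA genes 287. Of the latter, 34.5% were higher in EPSCs by over 1 and 29.3% higher in NSCs by over 1, beside 23.6% and 24.8% of the protein-coding genes.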

How the data were processed

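RNA was sequenced from 8 libraries, 2 per group, of which the EPSC and NSC libraries are compared here. According to the study, poly-A libraries were prepared with a stranded kit, reads were trimmed with skewer and aligned with STAR 2.7.9a to mm10, and genes were quantified with Cuffnorm of Cufflinks 2.2.1. The authors deposited FPKM for each gene and library, with replicates not pooled. The annotation, the strand setting of the quantification, and the library normalization are not given in the sources used here, so overlapping and near-identical genes may share reads. Of the members, 99.7% were matched to RefSeq genes. Members and gene lists were chosen with earlier results of these data known.

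FPKM were compared as log2(FPKM + 1) with limma 3.58.1 (R 4.3.3; lmFit, contrasts, and eBayes with trend), with 4 groups in one fit of 8 libraries, 4 residual and 3.25 prior degrees of freedom, over the 13239 genes with a mean of at least 1 FPKM in any group. Tests were two-sided, and p-values were adjusted over all of these genes by the Benjamini-Hochberg method at 0.05. In simulated data of 13239 genes, 191 of 200 changed genes were called (92 of 100 at a log2 change of 1, 99 of 100 at 2). There were 17 false calls (8.17% of the calls). All groups were drawn from one mean profile, and the changed genes had an EPSC mean over 2 in log2(FPKM + 1). In the data 87.1% of the members were called and the FPKM sums differed, so these rates do not carry over to the comparison. Named genes are the 10 with the largest difference in each direction and the 10 most abundant in each partner, the leading, opposing, and preset members of 42 lists, the genes of 20 pairs, and the members nearest the threshold. Some genes of the lists are not reported here by name, many of the named genes are only counted, and others of the lists were added after their values were seen. Tables were handled with Python 3.11.15, pandas 2.3.3, and scipy 1.17.1. Alternatives covered the pseudocount, the filter, the scaling, a fit without ESCs and hybrid cells, a replicate block, and each library left out.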

Additional observations from a re-analysis of the deposited data

How the results depend on the processing

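With 2 libraries of one line per group, and a depth known only as an estimate, levels near the floor rest on few fragments, and neither independent derivations nor feeder-free EPSCs were measured. Scaling each library to a sum of 1000000 moved the split of the calls by direction most, to 3794 higher in EPSCs and 7458 higher in NSCs. Among those over 1 it gave 2008 and 4870, and by the rule with thresholds of 3 it gave 1310 and 3592. The cause of the unequal sums was not tested. Under this scaling 592 calls changed direction, against 125 when ribosomal protein genes were left out of the sum (4420 higher in EPSCs, 39.7% of the calls) and 98 with quantile normalization. Thresholds of 2 in this rule gave 6256 genes, 2995 of them higher in EPSCs. A pseudocount of 0.1 gave 2079 genes over 1 between EPSCs and ESCs, where differences of low genes weigh more. When any 1 library was left out, the calls between EPSCs and NSCs numbered 10511 to 11268, and no call of the full set changed direction. The libraries share replicate numbers, which are not stated to be a pairing. Deviations from the group means of libraries with the same number had r = 0.069 for EPSCs and NSCs. Over all pairs of groups r lay between −0.11 and 0.28, the highest for EPSCs and hybrid cells. With 2 libraries per group, these values cannot decide whether the numbers pair the samples. With the replicate block, 5694 genes were higher in EPSCs and 5426 in NSCs, 11036 of the 11089 calls were kept, and so were all 6204 calls over 1. Scaling to one sum turned the medians of the lists for complex I (−0.30), complex III (−0.073), complex V (−0.023), the pentose phosphate pathway (−0.37), and Wnt targets (−0.13), and the difference of Sox2 (−0.19) and Smarcc1 (−0.27). Leaving ribosomal protein genes out of the sum turned complex I (−0.085), pentose phosphate (−0.16), and Smarcc1 (−0.056). Quantile normalization turned complex I (−0.088), complex III (−0.068), complex V (−0.20), glycolysis (−0.40), neuron markers (0.15), Sox2 (−0.12), Rps4x (−0.11), and Rpl41 (−0.045). The median of the neuron markers, −0.10 over 6 genes, also turned with a minimum of 3 FPKM (1.12) and lay between −0.22 and 0.021 when 1 EPSC or NSC library was left out, turning without the second EPSC library. Of the 42 lists, the other 35 kept the sign of their median in all settings.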

Other observations

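One chromosome stood apart when EPSCs and ESCs were compared. On chromosome 8, the median difference of the 679 members between EPSCs and ESCs was −0.25, whereas on the other chromosomes it lay between −0.0081 and 0.22. The median between ESCs and NSCs was 0.31 on chromosome 8, against −0.27 to 0.17 on the others, and that between EPSCs and NSCs was −0.0073. These medians are descriptions over genes that share libraries.

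Other values concern single genes. Ftl1 was at 6236 and 6183 FPKM in EPSCs and 1250.2 and 1247 in ESCs, a difference of 2.31 (adjusted p = 1.2e-06 from limma), and Ldhb was at 178 and 163 FPKM in EPSCs, 712 and 682 in ESCs, and 78.6 and 74.3 in NSCs. Cdkn1b, a CDK inhibitor gene, was at 8.75 and 10.3 FPKM in EPSCs, 34.1 and 34.5 in ESCs, and 44.8 and 52.4 in NSCs.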
